A study of Mus musculus with 12 samples.

Results

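Osteopontin, encoded by Spp1, and CD44, encoded by Cd44, are a secreted protein and a cell surface receptor, and their mRNA levels were followed in both retinas of 6 p16-3MR mice. These 2 genes, of 24340 rows in the deposited table, were picked because Spp1 was among the largest rises after elevation of intraocular pressure (IOP) and rose less in mice given ganciclovir (GCV). The genes were thus selected on their FPKM values in the IOP comparisons with and without GCV, and those values are given as a description without a test. All mice were 12 to 16 weeks old and carried the p16-3MR transgene, in which the p16 regulatory region drives a fusion of luciferase, a red fluorescent protein and the thymidine kinase of herpes simplex virus. GCV is turned into a toxic product by that kinase, so it acts on cells in which the p16 region is active. Pressure in one eye was raised to 85 to 90 mm Hg for 60 min in each mouse, and the fellow eye was left without IOP elevation. Mice 1, 2 and 5 then received GCV (25 mg/kg once a day, intraperitoneally), and mice 3, 4 and 6 received phosphate-buffered saline. This gave 4 groups of 3 retinas, collected on day 3: CTRL and IOP from the saline mice, and CTRL_GCV and IOP_GCV from the GCV mice. Both eyes of a GCV mouse were exposed to the drug, and no mice lacking the transgene were among these libraries.

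Osteopontin is a phosphorylated glycoprotein of bone matrix and body fluids. It is also secreted by activated macrophages and microglia, and in the retina it is known as a product of alpha retinal ganglion cells. It binds integrins through an RGD sequence and through a further site that thrombin and matrix metalloproteinases expose, and it has also been described as a ligand of CD44. CD44 is best known as the main receptor for hyaluronan. It is found on leukocytes and on Müller glia, many splice forms exist, and it is shed by membrane proteases before its inner part is cleaved by gamma-secretase.

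On the GRCm38 build, Spp1 (gene 20750) lies on the plus strand at chr5:104435111-104441053, spans 5943 bases and has 7 exons, and Cd44 (gene 12505) lies on the minus strand at chr2:102811141-102901669, spans 90529 bases and has 19 exons in its longest form. RefSeq lists 5 curated transcripts of Spp1 and 6 of Cd44, and a single value per gene was deposited, so splice forms of CD44 cannot be separated. The 250 bases before the start of each gene in the RefSeq promoter table (GRCm38.p6) are printed because both genes were higher in every IOP-treated retina than in its fellow eye. Capitals mark matches, on either strand, to a TATA box (TATAAA), a PU.1/ETS core (GAGGAA) or a RUNX core (TGTGGT).
Spp1, chr5:104434861-104435110, plus strand: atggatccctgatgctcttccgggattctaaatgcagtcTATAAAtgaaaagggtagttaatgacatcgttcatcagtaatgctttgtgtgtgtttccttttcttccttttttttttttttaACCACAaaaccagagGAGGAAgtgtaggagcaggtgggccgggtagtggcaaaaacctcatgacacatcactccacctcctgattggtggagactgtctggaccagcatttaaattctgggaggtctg
Cd44, chr2:102901666-102901915, minus strand: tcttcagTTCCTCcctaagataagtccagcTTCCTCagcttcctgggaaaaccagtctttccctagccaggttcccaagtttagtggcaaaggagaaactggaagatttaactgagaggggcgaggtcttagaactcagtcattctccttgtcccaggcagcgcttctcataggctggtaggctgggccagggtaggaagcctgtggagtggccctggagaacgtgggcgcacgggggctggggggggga
In the Spp1 window TATAAA stood at -211 to -206, the RUNX core on the opposite strand at -128 to -123 and GAGGAA at -113 to -108, counted back from that start. The Cd44 start used there lies inside the gene as given above, so the first 4 bases of its window by coordinate fall within the gene, and its positions are counted from the start of the promoter table. In the Cd44 window the GAGGAA core stood on the opposite strand at -243 to -238 and at -220 to -215. GAGGAA was the only searched motif found before both genes, and 23.4% of 32536 promoter windows of the same length held it, against 12.3% for TATAAA and 14.0% for TGTGGT. The letters of AP-1 (TGANTCA), STAT (TTCNNNGAA), E-box (CACGTG), SP1 (GGGCGG) and NF-kB motifs, present in 6.73%, 7.04%, 6.04%, 33.0% and 7.28% of windows, were not in either window. A second RefSeq start of Spp1, with its window at chr5:104435942-104436191, held none of the 8 motifs. A match to such short letters is a description of the sequence and not a binding site.

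Levels are in FPKM, which scales fragments by exon length and library size, so levels can be set side by side between genes. Library sums were 394758 to 529896 FPKM. Estimated depth was 3990000 to 9060000 fragments, lowest in the library of IOP retina 6. That library detected 14844 genes, and the others detected 16044 to 16593. At this depth the lowest Spp1 value rested on about 125 to 135 fragments and the lowest Cd44 value on about 17 to 73, depending on the transcript length. In these bulk retinas, more cells of a type and more RNA per cell cannot be told apart.

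Spp1 was expressed in every retina. In CTRL retinas its level was 13.0 FPKM in mouse 3, 15.7 FPKM in mouse 4 and 19.2 FPKM in mouse 6. In the IOP retinas of the same mice it was 380 FPKM, 112 FPKM and 652 FPKM. The 2 groups did not overlap, and mouse 4 was the lowest of the IOP retinas. In this comparison limma called 1.42% of 18509 genes higher at an adjusted p under 0.05, from which nothing is read for Spp1. That is not the share of genes whose groups did not overlap, which is not given here or below. The level was 29.2 times that of the fellow eye in mouse 3, 7.15 times in mouse 4 and 34.0 times in mouse 6. The group means were 15.9 ± 3.1 FPKM and 381 ± 270 FPKM (SD, n = 3), a ratio of 23.9. On the log2(FPKM + 1) scale the IOP eye exceeded the CTRL eye by 4.18 ± 1.24 (SD, n = 3 mice), by 3.76 without mouse 6, whose IOP library had the lowest depth, and by 4.89 without mouse 4.

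In the GCV mice Spp1 was 17.3 FPKM, 29.2 FPKM and 26.8 FPKM in the CTRL_GCV retinas of mice 1, 2 and 5. The IOP_GCV retinas of these mice held 89.0 FPKM, 50.04 FPKM and 208 FPKM. Each IOP_GCV retina again lay above all 3 CTRL_GCV retinas, with mouse 5 the highest and mouse 2 the lowest, in a comparison in which limma called 1.65% of genes higher. The fold over the fellow eye was 5.15 in mouse 1, 1.71 in mouse 2 and 7.77 in mouse 5. Group means were 24.4 ± 6.3 FPKM and 116 ± 82 FPKM (SD, n = 3), a ratio of 4.74, and the mean difference between the eyes was 1.99 ± 1.11 (SD, n = 3 mice) on the log2(FPKM + 1) scale. The 2 sets of IOP-treated retinas overlapped, because mouse 4 without GCV (112 FPKM) was below mouse 5 with GCV (208 FPKM). The folds overlapped as well, at 7.15 in mouse 4 and 7.77 in mouse 5, so the smaller response under GCV rested on mice 3 and 6 on one side and on mice 1 and 2 on the other. Ordered by mean, the groups ran CTRL, CTRL_GCV, IOP_GCV and IOP, and the neighbours CTRL and CTRL_GCV, and IOP_GCV and IOP, were not separated by their ranges.

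**Figure D1:**
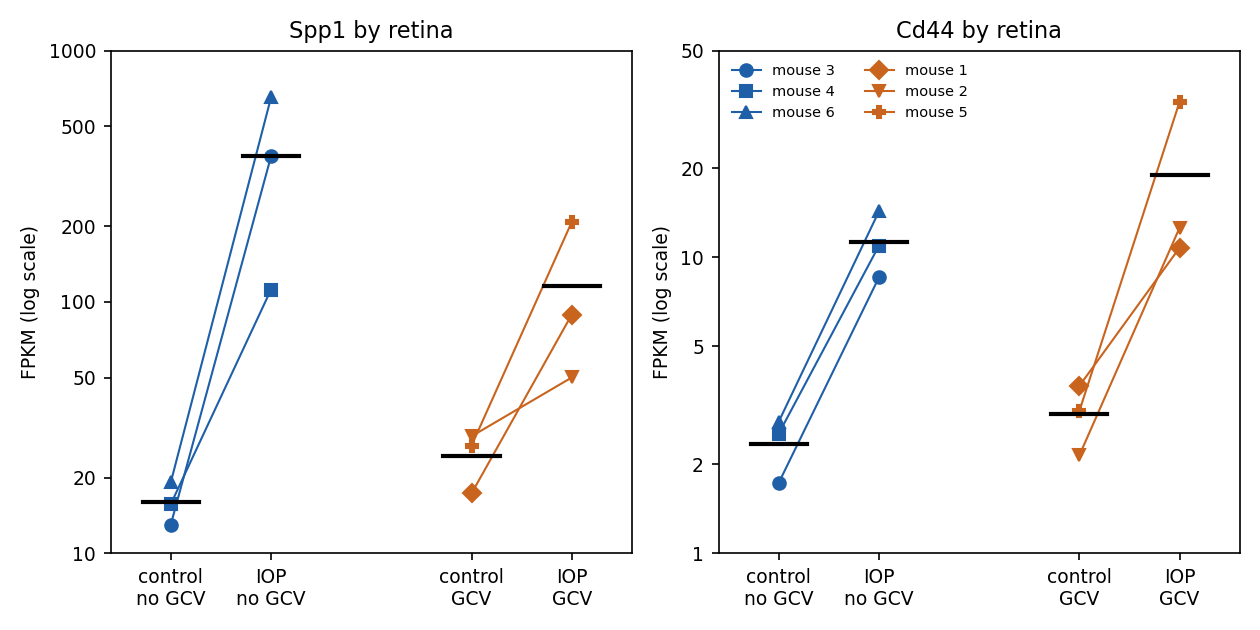
Spp1 (left) and Cd44 (right) in FPKM on log axes in the 12 retinas, with a line joining the eyes of a mouse and a black bar at the mean of each group of 3. Every line rises, Spp1 to between 112 and 652 FPKM without GCV and to between 50.04 and 208 FPKM with GCV, and Cd44 to between 8.56 and 14.3 FPKM and to between 10.8 and 33.6 FPKM.

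Cd44 was much lower than Spp1 in all retinas. The CTRL retinas of mice 3, 4 and 6 held 1.73 FPKM, 2.54 FPKM and 2.78 FPKM, and their IOP retinas 8.56 FPKM, 11.0 FPKM and 14.3 FPKM. The eyes did not overlap, again with no share of all genes to set beside it. The folds were close to each other at 4.96, 4.32 and 5.15. Mean levels were 2.35 ± 0.55 FPKM and 11.3 ± 2.9 FPKM (SD, n = 3), a ratio of 4.80, and the difference between the eyes was 1.86 ± 0.14 (SD, n = 3 mice) on the log2(FPKM + 1) scale.

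With GCV, Cd44 was 3.68 FPKM, 2.14 FPKM and 3.03 FPKM in the CTRL_GCV retinas of mice 1, 2 and 5. It was 10.8 FPKM, 12.6 FPKM and 33.6 FPKM in their IOP_GCV retinas. Mouse 5 stood far above the other IOP-treated retinas, while mice 1 and 2 lay within the range of the IOP retinas without GCV. The folds were 2.93 in mouse 1, 5.89 in mouse 2 and 11.1 in mouse 5. Means were 2.95 ± 0.77 FPKM and 19.0 ± 12.7 FPKM (SD, n = 3), a ratio of 6.45, and the difference between the eyes was 2.18 ± 0.89 (SD, n = 3 mice) on the log2(FPKM + 1) scale. Ordered by mean, the groups ran CTRL, CTRL_GCV, IOP and IOP_GCV, with CTRL and CTRL_GCV, and IOP and IOP_GCV, overlapping. The mean Spp1 difference was smaller in the GCV mice than in the saline mice and the mean Cd44 difference was not.

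Receptor and ligand did not keep a fixed proportion. The ratio of Spp1 to Cd44 in FPKM was 6.18 to 7.53 in CTRL retinas and 4.70 to 13.6 in CTRL_GCV retinas. It was 44.4, 10.2 and 45.5 in the IOP retinas of mice 3, 4 and 6, and 8.25, 3.97 and 6.19 in the IOP_GCV retinas of mice 1, 2 and 5. All 3 IOP retinas had a higher ratio than all 3 IOP_GCV retinas, which follows in part from the choice of Spp1 for a smaller rise under GCV. In mice 2 and 5 the ratio was lower in the IOP-treated eye than in the fellow eye, where it was 13.6 and 8.84, and in the other 4 mice it was higher. Across the 6 mice the Spp1 and Cd44 changes had Pearson's r = -0.030 and Spearman's rho = 0.143 (n = 6 mice of both arms, a description). These pool the arms, although Spp1 was picked for differing between them. After the mean of each group was subtracted, the log2 levels over the 12 retinas had Pearson's r = 0.502.

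**Figure D2:**
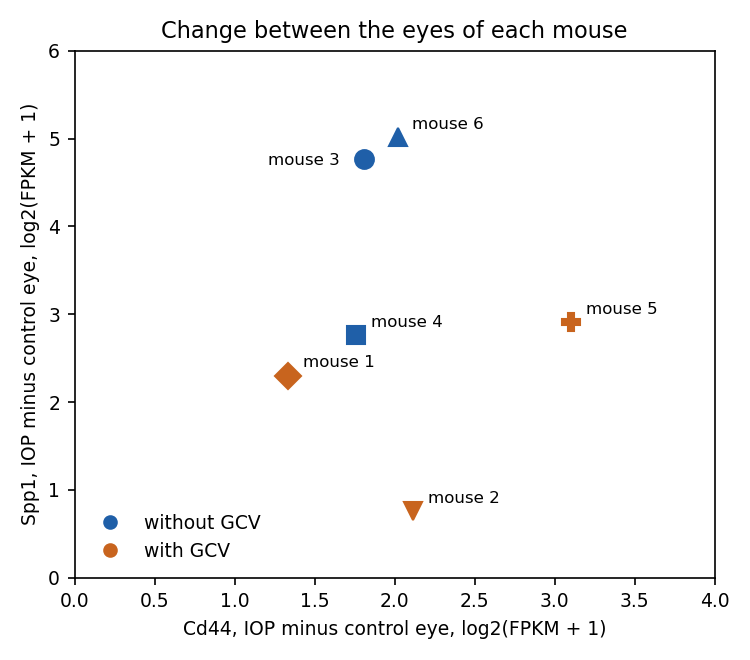
Difference between the IOP-treated and the control eye of each mouse in Spp1 (y axis) against Cd44 (x axis), both in log2(FPKM + 1), with mice without GCV in blue and with GCV in orange. Mice 3 and 6 stand at the top with Spp1 differences of 4.77 and 5.02, mouse 2 at the bottom with 0.76, and mouse 5 at the right with a Cd44 difference of 3.10.

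GCV against no GCV was also compared in retinas without IOP elevation. These control values enter the differences between the eyes on which the genes were picked, so they are given without a test. Spp1 was 17.3 to 29.2 FPKM in CTRL_GCV and 13.0 to 19.2 FPKM in CTRL retinas, a log2 difference of 0.57 (standard error 0.62), and the groups overlapped in mouse 1 with GCV and mouse 6 without. Cd44 was 2.14 to 3.68 FPKM and 1.73 to 2.78 FPKM, a log2 difference of 0.23 (standard error 0.37), and these groups overlapped as well. Both standard errors are from the limma fit, whose spread is shared by all 4 groups, so they also hold the spread of the IOP-treated retinas. Without the IOP retina of mouse 4, which is not in this comparison, the standard error for Spp1 was 0.45. In this comparison limma called 0 of 18509 genes (0.0%) at an adjusted p under 0.05, and 295 (1.59%) at an unadjusted p under 0.05.

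Spp1 stood in the upper part of the table before injury and near its top after it. Its mean was higher than that of 80.5% of all rows in CTRL, 86.5% in CTRL_GCV, 97.6% in IOP_GCV and 99.5% in IOP retinas, where it ranked 124 by mean. The corresponding shares for Cd44 were 54.7%, 56.6%, 82.6% and 74.3%. Rows at 0 count as lower in these shares, and 18509 of the 24340 rows were above 0 in at least 1 library. By mean in CTRL retinas Spp1 ranked 4739 and Cd44 11015, where 16151 to 16396 genes were above 0 per library. By log2 difference Spp1 stood at rank 12 of 18509 genes without GCV, just after Cd68 (4.41) and Bcl3 (4.22) and just before Crygb (4.0) and Wfdc17 (3.86). With GCV it stood at rank 233, between Ikbke (2.0) and Cxcr4 (1.99) above and Zfp36 (1.98) and Parp10 (1.98) below. Cd44 kept a similar place at ranks 227 and 197, beside Igtp, Fosb, Myo1f and Rac2 without GCV and Aif1, Pik3ap1, Neurl3 and Il2rg with GCV. These ranks describe the choice of Spp1 and are not evidence for it.

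As a sum, monocyte and macrophage markers exceeded the level of the fellow eye after IOP in every mouse, and so did Spp1 and Cd44. The summed level of 8 genes of infiltrating monocytes and macrophages was 11.8 to 47.9 FPKM in CTRL and 10.8 to 25.8 FPKM in CTRL_GCV retinas. In the IOP retinas of mice 3, 4 and 6 it was 695 FPKM, 326 FPKM and 718 FPKM, and in the IOP_GCV retinas of mice 1, 2 and 5 it was 571 FPKM, 165 FPKM and 2467 FPKM. Most of the sum was Lyz2, the lysozyme gene of macrophages and neutrophils, at 278 to 627 FPKM in IOP and 124 to 2050 FPKM in IOP_GCV retinas, so orders by the sum rest largely on 1 gene. All 8 genes had higher means after IOP in both arms, and limma called 5 of 8 higher in each arm, against 1.42% and 1.65% of all genes called higher. With the mouse as a replicate block 2 of 8 were called without GCV and 5 of 8 with GCV, and without CTRL mouse 3 or CTRL mouse 4 none was called in the arm without GCV. Mouse 5 had both the highest sum and the highest Cd44 level, whereas its Spp1 level of 208 FPKM was below those of mice 3 and 6. Within each arm the order of the mice by Spp1 was the order by this sum, although mice 3 and 6 were close in the sum (695 FPKM and 718 FPKM) and apart in Spp1 (380 FPKM and 652 FPKM). By Cd44 the order differed from that by the sum in both arms. The part of these cells in the Spp1 and Cd44 values was not tested.

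**Figure D3:**
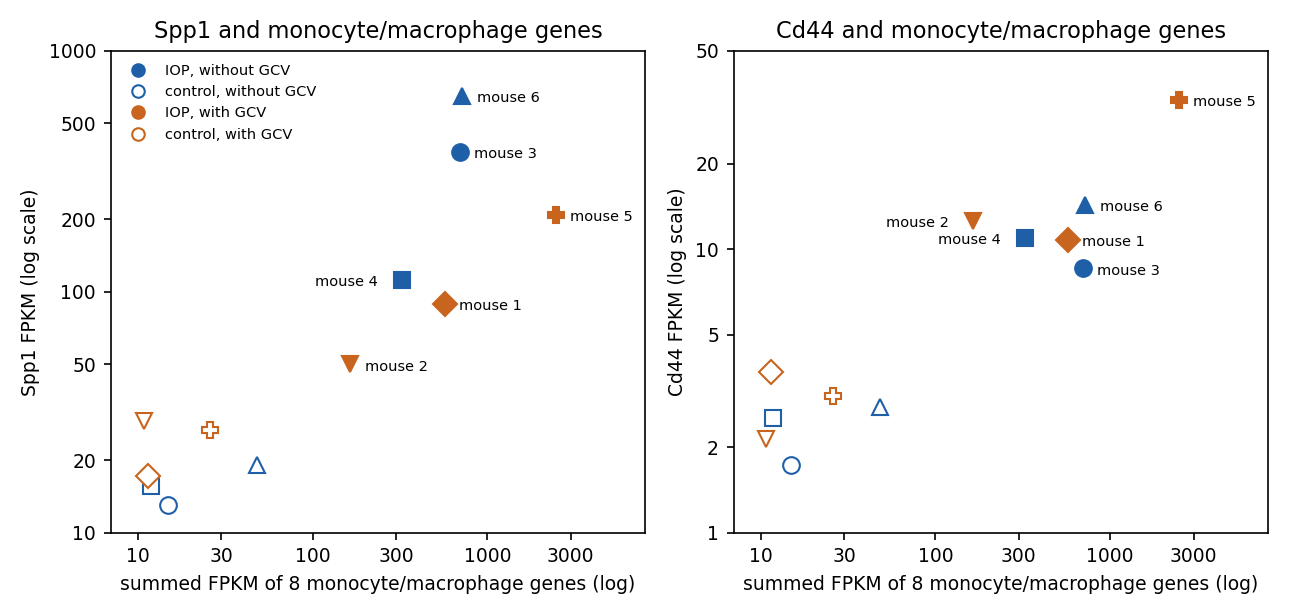
Spp1 (left) and Cd44 (right) in FPKM against the summed FPKM of 8 monocyte and macrophage genes, most of it Lyz2, all on log axes, with IOP-treated retinas filled, control retinas open and GCV mice in orange. IOP-treated retinas lie at sums of 165 to 2467 FPKM and controls at 10.8 to 47.9 FPKM, and mouse 5 with GCV combines the highest sum with 33.6 FPKM of Cd44 and 208 FPKM of Spp1.

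The 10 microglial genes summed to 38.8 to 50.1 FPKM in CTRL, 95.6 to 134 FPKM in IOP, 42.8 to 46.7 FPKM in CTRL_GCV and 72.0 to 183 FPKM in IOP_GCV retinas, and 4 of 10 were called higher without GCV and 3 of 10 with GCV, against 1.42% and 1.65% of all genes, and with the mouse as a replicate block 1 of 10 in each arm. Of the 10 microglial genes 8 had higher means after IOP in each arm. P2ry12, a marker of homeostatic microglia, stayed at 1.61 to 3.16 FPKM in all 12 retinas. Siglech was lower after IOP, at 0.935 to 1.10 FPKM in CTRL and 0 to 0.614 FPKM in IOP retinas. In the GCV mice it was 0.848 to 0.891 FPKM in control and 0.220 to 0.456 FPKM in IOP-treated retinas. Genes of neutrophils (4 of 5 listed are in the table, with Mpo at 0 throughout) summed to 0.579 to 16.5 FPKM in control retinas and to 14.1 to 375 FPKM in IOP-treated retinas, highest in mouse 5, and none was called. With the mouse as a replicate block S100a8 was called with GCV, where 144 genes were called in all, and no neutrophil gene was called without GCV. Ganglion cell genes went the other way. All 10 had lower means after IOP in both arms, with a median log2 difference of -1.16 and -1.47 and none called, where 48.7% and 50.7% of all genes had higher means and 0.232% and 0.157% were called lower, and their sum was below that of every control retina in 5 of the 6 IOP-treated retinas, mouse 4 being the exception with 998 FPKM. Without that library 9 of the 10 were called without GCV and 8 of the 10 with GCV. In that fit the calls over all genes were also far more, at 2490 without GCV and 1046 with GCV. Of the pair of alpha ganglion cell genes, the potassium channel gene Kcng4 was higher after IOP (5.73 to 8.20 FPKM against 14.7 to 19.8 FPKM without GCV, and 8.42 to 10.3 FPKM against 13.5 to 18.3 FPKM with GCV) and was called without GCV but not with the mouse as a replicate block, while the neurofilament gene Nefh ranged from 34.0 to 46.5 FPKM against 12.7 to 31.6 FPKM and from 39.4 to 75.1 FPKM against 15.5 to 26.8 FPKM. The 7 lens genes differed widely between libraries, from 4.26 to 5333 FPKM in control and from 58.2 to 4079 FPKM in IOP-treated retinas. All 7 had higher means after IOP in both arms, with a median log2 difference of 3.33 without GCV and 2.86 with GCV, and none was called. The lens sum was 58.2 FPKM, 3179 FPKM and 2119 FPKM in the IOP retinas of mice 3, 4 and 6 and 4079 FPKM, 2095 FPKM and 3297 FPKM in the IOP_GCV retinas of mice 1, 2 and 5. Among control retinas it was 5333 FPKM in mouse 1 and 4.26 to 86.7 FPKM in the other 5. The part of lens tissue in the Spp1 and Cd44 values was not tested.

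Proteins that bind or process osteopontin include integrins, proteases and a transglutaminase. Of 18 genes for them and for sister phosphoproteins tested, 12 had higher and 6 lower means after IOP without GCV, with a median log2 difference of 0.20, and 1 was called higher. Over all genes 48.7% were higher and the median was 0.0, and limma called 306 of 18509 (1.65%). With GCV, 14 were higher and 3 lower with a median of 0.32, against 50.7% higher and a median of 0.0040 over all genes, and limma called 0 of the 18 and 334 of 18509 genes (1.8%), with 5 of the 18 at an unadjusted p under 0.05 in each arm. Over all genes 18.9% without GCV and 19.2% with GCV had an unadjusted p under 0.05. None of the 10 integrin receptor genes was called in either arm, and 3 of 10 had an unadjusted p under 0.05 in each, beside those shares of 18.9% and 19.2%. Itgb1, the most abundant of them, which pairs with several alpha chains in osteopontin receptors, was 13.3 ± 0.8 FPKM in CTRL and 20.95 ± 1.55 FPKM in IOP retinas, and 14.8 ± 1.3 FPKM and 26.6 ± 15.9 FPKM in the GCV mice (SD, n = 3). Itgb5, which pairs with the alpha V chain, was 11.2 ± 1.2 FPKM and 16.0 ± 1.9 FPKM, and 12.4 ± 2.0 FPKM and 19.2 ± 5.5 FPKM.

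The called gene was Mmp12, macrophage metalloelastase, which cleaves osteopontin. Mmp12 was 0.0747 FPKM, 0.191 FPKM and 0.233 FPKM in CTRL retinas and 2.34 FPKM, 2.85 FPKM and 9.07 FPKM in IOP retinas of mice 3, 4 and 6. It rose by 2.12 on the log2(FPKM + 1) scale (standard error 0.40, limma adjusted p = 0.0297). With GCV it was 0.0423 to 0.270 FPKM in control and 1.42 to 4.47 FPKM in IOP-treated retinas, a log2 difference of 1.54 (adjusted p = 0.0844). The call without GCV was lost with the mouse as a replicate block (adjusted p = 0.0843) and when any 1 of the 6 control libraries was left out. Tgm2, a transglutaminase that crosslinks osteopontin, was 1.995 ± 0.597 FPKM in CTRL and 10.6 ± 2.1 FPKM in IOP retinas, and 1.92 ± 0.69 FPKM and 12.3 ± 11.2 FPKM in the GCV mice (SD, n = 3, adjusted p = 0.0697 and 0.0701). Mmp9, a gelatinase that also cuts osteopontin, was 6.16 ± 0.91 FPKM against 6.06 ± 3.25 FPKM, and 8.36 ± 2.01 FPKM against 15.2 ± 15.7 FPKM. Of the sister phosphoprotein genes, Ibsp, Dspp and Mepe were at 0 in all 12 retinas and Dmp1 was close to 0, so Spp1 was the member of that family seen in these retinas. Between the arms, limma called 0 of the 18 genes for the interaction of IOP and GCV, and 0 at an unadjusted p under 0.05, while 0 of all 18509 genes (0.0%) were called and 358 (1.93%) had an unadjusted p under 0.05.

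**Figure D4:**
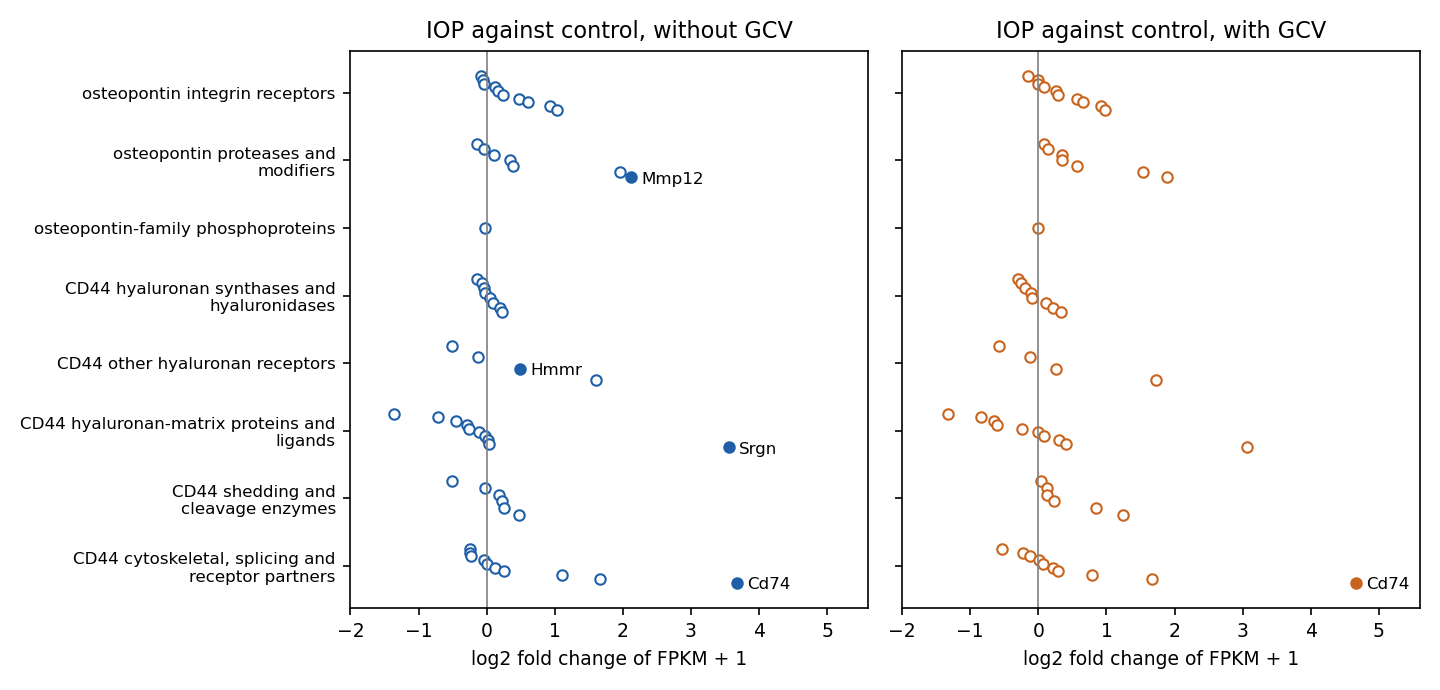
Log2 difference in FPKM + 1 between IOP-treated and control retinas for 18 osteopontin and 38 CD44 partner genes by list, without GCV (left) and with GCV (right). Filled points are genes called by limma at an adjusted p under 0.05, which are Mmp12, Hmmr, Srgn and Cd74 without GCV and Cd74 with GCV.

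The genes of CD44 ligands, fellow receptors, sheddases and cytoskeletal partners showed no shared direction. Of 38 tested, 19 were higher and 19 lower after IOP without GCV, with a median of -0.01, and 3 were called higher, against 1.42% of all genes. With GCV 22 were higher and 16 lower, with a median of 0.07, and 1 was called higher, against 1.65% of all genes. At an unadjusted p under 0.05 there were 8 of 38 without GCV and 13 of 38 with GCV, against 18.9% and 19.2% of all genes. The called genes were Hmmr, Srgn and Cd74, and for the interaction limma called 0 of 38 and found 0 with an unadjusted p under 0.05. For GCV in control retinas it called 0 of the 18 osteopontin and 0 of the 38 CD44 partner genes, with 0 and 1 at an unadjusted p under 0.05.

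Cd74, the invariant chain of MHC class II, which forms a receptor with CD44 for macrophage migration inhibitory factor, was 6.32 FPKM, 1.49 FPKM and 20.0 FPKM in CTRL retinas and 100 FPKM, 67.1 FPKM and 115 FPKM in IOP retinas. With GCV it was 5.16 FPKM, 5.70 FPKM and 2.45 FPKM in control and 176 FPKM, 74.7 FPKM and 171 FPKM in IOP-treated retinas of mice 1, 2 and 5. No IOP-treated retina overlapped a control, again with no share of all genes to set beside it. Cd74 rose by 3.68 on the log2(FPKM + 1) scale without GCV (standard error 0.65, limma adjusted p = 0.0258) and by 4.66 with GCV (adjusted p = 0.00800). With the mouse as a replicate block the adjusted p was 0.0559 without GCV and 0.0296 with GCV, and the first call was also lost without either retina of mouse 3, CTRL retina 4 or IOP retina 6. Its ligand Mif was 72.5 ± 9.4 FPKM in CTRL and 62.3 ± 12.2 FPKM in IOP retinas, and 84.9 ± 8.4 FPKM and 74.2 ± 22.5 FPKM with GCV (SD, n = 3, adjusted p = 0.562 and 0.616).

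Srgn encodes serglycin, a granule proteoglycan of leukocytes whose chains bind CD44. It was 2.01 FPKM, 1.71 FPKM and 3.12 FPKM in CTRL retinas and 24.7 FPKM, 15.8 FPKM and 125 FPKM in IOP retinas of mice 3, 4 and 6, with mouse 6 far above the others. It rose by 3.56 on the log2(FPKM + 1) scale (standard error 0.74, limma adjusted p = 0.0448). The call was kept in only 3 of 12 fits that left out 1 library and was lost with the mouse as a replicate block (adjusted p = 0.0533). With GCV Srgn was 2.02 to 4.34 FPKM in control and 17.5 to 85.1 FPKM in IOP-treated retinas (adjusted p = 0.0691). Hmmr, a hyaluronan receptor also known from dividing cells, was 0 to 0.153 FPKM in CTRL and 0.370 to 0.600 FPKM in IOP retinas, a rise of 0.50 (standard error 0.09, adjusted p = 0.0232) at levels that rest on few fragments. The Hmmr call was lost without CTRL retina 3 or 4 or IOP retina 6, and Hmmr did not pass the filter of at least 1 FPKM in 3 libraries.

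The remaining CD44 partner genes gave values without calls. Stab1 and Lyve1, further hyaluronan receptors, differed in direction, at 0.402 ± 0.327 FPKM in CTRL and 3.34 ± 1.28 FPKM in IOP retinas for Stab1 and 3.96 ± 0.81 FPKM and 2.66 ± 1.62 FPKM for Lyve1 (SD, n = 3). With GCV Stab1 was 0.198 ± 0.047 FPKM and 4.08 ± 4.08 FPKM, and Lyve1 4.30 ± 1.17 FPKM and 2.65 ± 1.18 FPKM. Hapln4, a link protein of perineuronal matrix, was 4.23 ± 0.59 FPKM in CTRL and 1.34 ± 1.59 FPKM in IOP retinas, and 5.26 ± 1.94 FPKM and 1.65 ± 1.26 FPKM with GCV (adjusted p = 0.203 and 0.181). None of the 8 hyaluronan synthase and hyaluronidase genes was called in either arm, and 0 of 8 had an unadjusted p under 0.05, against 18.9% and 19.2% of all genes. Hyal2 was 5.26 ± 0.52 FPKM in CTRL and 5.65 ± 2.01 FPKM in IOP retinas, and 5.49 ± 0.60 FPKM and 7.20 ± 0.60 FPKM with GCV. Hyal3 was 2.27 ± 0.16 FPKM and 2.82 ± 0.99 FPKM without GCV, and 2.73 ± 0.34 FPKM and 2.18 ± 0.65 FPKM with GCV, where the mean was lower after IOP. Ncstn, which encodes the gamma-secretase subunit nicastrin, was 27.5 ± 1.3 FPKM in CTRL and 31.4 ± 4.1 FPKM in IOP retinas, and 25.1 ± 2.3 FPKM and 29.6 ± 3.7 FPKM with GCV.

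The genes most like Spp1 and Cd44 over the 12 retinas were not the same ones. Among 12910 genes that averaged 1 FPKM or more, the highest Pearson's r with Spp1 on the log2(FPKM + 1) scale were those of Oxct1, Fam111a and Net1 (0.958 each), Agtpbp1 (0.957) and Cd68 (0.955), and Cd44 ranked 780 (r = 0.804). Cd68, a lysosomal protein of phagocytes, was 3.55 to 6.47 FPKM in CTRL and 43.6 to 293 FPKM in IOP retinas, and 2.65 to 4.99 FPKM and 20.1 to 225 FPKM in the GCV mice. For Cd44 they were Spi1, which encodes the transcription factor PU.1 (0.976), Bcl2a1d (0.976), Irf8 (0.971), Stat2 (0.971) and Tgfbi (0.970), and Spp1 ranked 918. IOP-treated and control libraries lay apart in both genes, and these r span that gap over 12 libraries. Fam111a, Bcl2a1d, Irf8 and Tgfbi averaged under 1 FPKM in control retinas and reached the minimum only through the IOP-treated retinas, so a high r with a gene that was also higher there follows in part from the ranking itself. After the mean of each group was subtracted, the genes with the highest r were Rbm38 (0.979), Sugt1 (0.961), Mmp2 (0.943), Zbtb34 (0.940) and Plekhm1 (0.937) for Spp1, and Stk4 (0.938), Stk38 (0.931), Mapk6 (0.922), Cflar (0.921) and Skil (0.919) for Cd44. On that scale Spp1 and Cd44 had r = 0.502 with each other, which put Cd44 at rank 2969 for Spp1 and Spp1 at rank 1995 for Cd44.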

How the data were processed

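RNA of 12 retinas (both eyes of 6 mice) was sequenced as stranded paired-end reads of 50 bases. According to the methods, the authors used HOMER to count reads within RefSeq exons. The submitters' processing notes name TopHat2, Bowtie2, Cufflinks, Cuffdiff and mm10, without roles. The deposited table holds FPKM values. No unit is given with it, and FPKM was inferred from low values, which times transcript length were near whole multiples of 1 number per library (79.6% to 83.1% within 0.15). This also gave the estimated depth, a method chosen after the values were seen, from 8096 genes with 1 transcript of at least 1500 bases, less 170 bases. Columns were matched to samples by mouse number and treatment, and 0 columns were unused. Intervals for single values were not computed.

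Tests used limma 3.58.1 (R 4.3.3) on log2(FPKM + 1) (4 group means over 12 libraries, variance trend, Benjamini-Hochberg adjustment over 18509 rows above 0 in at least 1 library, threshold 0.05). Replicates are separate mice. A test of the members in control retinas had been planned and is not given, since control values enter the rule that picked them. Eyes of a mouse are pairs by the sample titles, and the correlation of their deviations from the group means was -0.117, 0.132, 0.207, 0.388, 0.166 and 0.0998 in mice 1 to 6. The fit with the mouse as a replicate block called 75 genes without GCV where the unblocked fit called 306. The members and gene lists were chosen with earlier results of these data known. Partner genes named are the called ones and the 2 most abundant of each list, except 1 item that is not reported here, and all 4 sister phosphoprotein genes are named because 3 were at 0. Genes most like each member are the 5 with the highest r. Neighbours are the 2 genes above and the 2 below each member in rank. Kcng4, Nefh, P2ry12, Siglech, S100a8, Lyz2, Gfap, S100b and Glul among the markers, and the genes beside the members on the chromosome, were chosen after values were seen. On simulated data with 200 changed genes of 18509 for IOP without GCV, 142 were called, 89 of those raised by 2 and 53 of those lowered by 1 on the log2 scale, with 6 false calls. Member values and calls were recomputed with median-ratio scaling, without the variance trend, with 0.1 as the pseudocount, on genes reaching 1 FPKM in 3 libraries, with the mouse as a block and with each library left out. Gene models were those of GRCm38, promoters those of RefSeq. Tables and figures were made with Python 3.11.15, pandas 2.3.3, numpy 2.4.6, scipy 1.17.1 and matplotlib 3.10.9.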

Additional observations from a re-analysis of the deposited data

How the results depend on the processing

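The mean differences of Spp1 and Cd44 between the eyes were above 0 in every alternative run. With a pseudocount of 0.1 the Cd44 log2 difference without GCV moved from 1.86 to 2.21, and the other member values moved by less than the spread between mice. Leaving out 1 mouse gave log2 differences of 3.76 to 4.89 for Spp1 and 1.78 to 1.91 for Cd44 without GCV, and of 1.53 to 2.61 and 1.72 to 2.61 with GCV. Leaving out 1 library gave a difference for GCV in control retinas of 0.43 to 0.79 for Spp1 and 0.09 to 0.39 for Cd44.

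Counts of called genes depended on single libraries. Without GCV, 306 genes were called, 464 with a pseudocount of 0.1 and 75 with the mouse as a replicate block, and leaving out 1 library gave 23 (without CTRL mouse 3) to 2490 (without IOP mouse 4). The count was also 30 without CTRL mouse 4 and 783 without IOP_GCV mouse 5. With GCV, 334 became 535 with a pseudocount of 0.1 and 144 with the replicate block, and 77 (without CTRL_GCV mouse 2) to 1046 (without IOP mouse 4) with 1 library left out. For the interaction leaving out 1 library gave 0 to 2 calls. For GCV in control retinas it gave 0 to 3 and a pseudocount of 0.1 gave 1. That comparison is between mice and could not be fitted with the block.

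Of the osteopontin partner genes, 1 was called without GCV, 2 with a pseudocount of 0.1, 2 with the filter on low values, 0 with the replicate block and 0 to 5 with 1 library left out. With GCV these counts were 0, 2, 1, 0 and 0 to 1. Of the CD44 partner genes 3 were called without GCV, 1 with the replicate block and 0 to 6 with 1 library left out. With GCV 1 was called, 2 with a pseudocount of 0.1, 3 with the filter and 1 to 3 with 1 library left out. Without GCV no partner gene was called when CTRL mouse 3 or CTRL mouse 4 was left out, 9 were called without IOP mouse 4 and 10 without IOP_GCV mouse 5. Calls in marker lists also varied. With 1 library left out they ranged from 0 to 8 of 8 without GCV and 3 to 6 of 8 with GCV for monocyte and macrophage genes, and from 0 to 5 of 10 and 0 to 6 of 10 for microglial genes. Ranks of likeness and neighbouring genes are given for the unblocked fit and all libraries only. The replicate block changed no other call of the partner genes. The cause of these changes was not tested. Values under about 1 FPKM, such as those of Hmmr and of Mmp12 in control retinas, rest on few fragments.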

Other observations

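Of 8 genes beside Spp1 and Cd44 on their chromosomes, 6 were above 0 and limma called none of them, where 1.65% and 1.8% of all genes were called. Next to Spp1 on chromosome 5, Mepe and Ibsp were at 0 in all 12 retinas, and Pkd2, which encodes polycystin 2, was 3.92 ± 0.40 FPKM in CTRL and 4.33 ± 1.24 FPKM in IOP retinas and 4.15 ± 0.40 FPKM and 4.41 ± 0.60 FPKM in the GCV mice (SD, n = 3, limma adjusted p = 0.829 and 0.915). Zfp951, a zinc finger gene further along, had log2 differences of -0.02 and 0.02. Next to Cd44 on chromosome 2, Slc1a2, a glutamate transporter gene, was 49.6 ± 3.8 FPKM and 56.9 ± 11.4 FPKM, and 45.2 ± 4.0 FPKM and 53.4 ± 5.2 FPKM with GCV (adjusted p = 0.485 and 0.402). On the other side, Pdhx had log2 differences of 0.41 and 0.05 and Apip of 0.70 and 0.12, none of them called by limma (adjusted p = 0.291 and 0.151 without GCV).

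Astrocyte genes did not move together. Of Pax2, Aldh1l1, S100b and Gfap, 2 of 4 had higher means after IOP in each arm, and limma called 1 of 4 higher without GCV and 2 of 4 with GCV, against 1.42% and 1.65% of all genes, and 0 of 4 and 1 of 4 with the mouse as a replicate block. Gfap, the intermediate filament gene of astrocytes and reactive Müller glia, was 9.69 to 33.3 FPKM in CTRL and 79.5 to 87.5 FPKM in IOP retinas, and 9.62 to 21.8 FPKM and 80.1 to 220 FPKM in the GCV mice. S100b had lower values, at 8.29 to 17.3 FPKM against 5.15 to 6.73 FPKM without GCV and 8.85 to 15.5 FPKM against 3.82 to 6.24 FPKM with GCV. Müller glia genes summed to 1326 to 1472 FPKM in CTRL and 670 to 932 FPKM in IOP retinas, and to 1615 to 1726 FPKM and 557 to 1187 FPKM in the GCV mice, with none of 8 called and most of the difference in Glul, the glutamine synthetase gene. Endothelial genes summed to 13.2 to 45.8 FPKM, fibroblast genes to 4.03 to 78.1 FPKM and blood genes to 18.8 to 498 FPKM over the 12 retinas, with none called in either arm. Of all genes 1.65% and 1.8% were called.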
